A study of Mus with 17 samples.

Results

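Fibrillar collagens are the proteins that give the outer layers of an artery their tensile strength. Each is a triple helix of long chains that is secreted, trimmed at its ends and packed into fibrils. Type I collagen joins the alpha1(I) chain encoded by Col1a1 with the alpha2(I) chain encoded by Col1a2, type III collagen is built from the chain encoded by Col3a1 alone, and type V collagen, with chains encoded by Col5a1 and Col5a2, starts and limits the growth of type I fibrils. In the vessel wall these genes are expressed mainly by fibroblasts and smooth muscle cells, and fibrous thickening of arteries is a known feature of hypertension.

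The members were set by a list of 5 Ensembl transcripts: Col1a1 ENSMUST00000001547, Col1a2 ENSMUST00000031668, Col3a1 ENSMUST00000087883, Col5a1 ENSMUST00000028280 and Col5a2 ENSMUST00000086430. Of these, 4 were found among the 39614 transcripts common to all 17 files. The Col5a2 identifier matched 0 of the 17 files used here, and Col5a2 is not analysed here. All 4 matched members passed the filter on low values described below. Every value is for a single transcript of its gene, and signal that the authors' processing gave to other transcripts of that gene is not in it. The genome build is not given in the sources used here, so no coordinates are printed.

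The tissue was abdominal aorta, taken from wild-type mice of C57BL/6, an inbred laboratory strain. Control mice (n = 5 samples) received saline and double distilled water, AngII mice (n = 6) received angiotensin II, a vessel-constricting peptide hormone, at 500 ng/kg/min and double distilled water, and the remaining mice (n = 6) received angiotensin II at that dose and neferine, an alkaloid of lotus seed, at 1 mg/kg/day. Treatment lasted 42 days in each group, and the study's design text states that differently expressed genes and pathways were sought. No group received neferine without angiotensin II, the labels give no age or sex, and they do not say whether a sample was 1 animal or a pool, so the p-values speak only of the spread between samples, which may be technical.

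The deposited value is an abundance signal on a linear scale with no unit named, so values are compared between libraries for 1 transcript and not between transcripts. Column totals were 392615 to 446577 in 14 libraries. They were 522609 in AngII replicate 2, 542841 in AngII replicate 6 and 569873 in neferine replicate 1. The same 3 libraries stood apart in other ways. The 10 highest transcripts took 31.0% of the signal in AngII replicate 2 and 29.0% in neferine replicate 1, and the rank correlation of AngII replicate 6 with the rest, across transcripts, had a median of 0.455, where the others had 0.606 to 0.680. The number of reads is unknown. The neferine files list a different set of transcripts from the Control and AngII files, so an effect of neferine and one of the file set cannot be told apart. The identifiers are not paired with gene names, so the tissue and its cell types could not be checked against markers, and genes that fold, cross-link or decorate collagen could not be counted.

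Col1a1, the major chain of type I collagen, had a signal of 625, 999, 683, 498 and 782 in Control replicates 1, 2, 4, 5 and 6. In AngII the lowest value was 213, the median 629 and the highest 1185. With neferine the lowest was 374, the median 1207 and the highest 1962. The Control libraries kept within a 2.0-fold range, while AngII spanned 5.56-fold and neferine 5.24-fold, and both treated groups had libraries above and below all Control libraries. The Control mean was 717 ± 188 (SD, n = 5), the AngII mean 683 ± 405 (SD, n = 6) and the neferine mean 1081 ± 590 (SD, n = 6). That order put neferine first, Control second and AngII last, and no neighbours in it differed beyond their spread.

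Col3a1, which encodes the chain of type III collagen, the more extensible fibril of vessel walls, had nearly the same profile. Its signal was 682, 965, 735, 617 and 868 in Control replicates 1, 2, 4, 5 and 6. In AngII the lowest value was 273, the median 538 and the highest 1129, and with neferine they were 479, 1052 and 2344. Control averaged 773 ± 142 (SD, n = 5), AngII 632 ± 366 (SD, n = 6) and neferine 1104 ± 679.9 (SD, n = 6). Here too 2 AngII libraries lay above every Control library and 3 below, and with neferine 4 lay above and 2 below. The order of the means was that of Col1a1, again with overlapping groups.

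The listed Col1a2 transcript, for the second chain of type I collagen, did not behave like that of Col1a1. Its signal was 109, 1007, 843, 554 and 1.65 in Control replicates 1, 2, 4, 5 and 6. In AngII replicates 1 to 6 it was 414, 0, 343, 12.6, 117 and 0. With neferine the lowest value was 56.7, the median 138 and the highest 1117. Control libraries thus spanned 609.5-fold in this transcript, and AngII replicates 2 and 6 listed it at 0 while Col1a1 stood at 213 and 570.1 in them. A listed 0 may be an estimate that failed, and for that reason no AngII mean is given. AngII replicate 6 listed 16.36% of all shared transcripts at 0, where the other libraries listed 4.39% to 10.13%, and AngII replicate 2 listed 5.73%. No neferine library listed Col1a2 at 0 or as low as Control replicate 6, and neferine libraries spanned 19.7-fold.

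Col5a1, which encodes a regulatory chain of type V collagen, had a signal of 9.15, 10.3, 6.22, 41.2 and 4.50 in Control replicates 1, 2, 4, 5 and 6. In AngII the lowest value was 2.63, the median 5.84 and the highest 12.9. With neferine the lowest was 3.87, the median 7.17 and the highest 23.4. Control replicate 5 was far above all other libraries of the study, although its Col1a1 and Col3a1 values were the lowest of Control. The Control mean was 14.3 ± 15.2 (SD, n = 5), the AngII mean 6.50 ± 3.75 (SD, n = 6) and the neferine mean 9.80 ± 6.98 (SD, n = 6). Control was thus first and AngII last, with overlapping groups, and the Control mean rests on replicate 5.

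**Figure D1:**
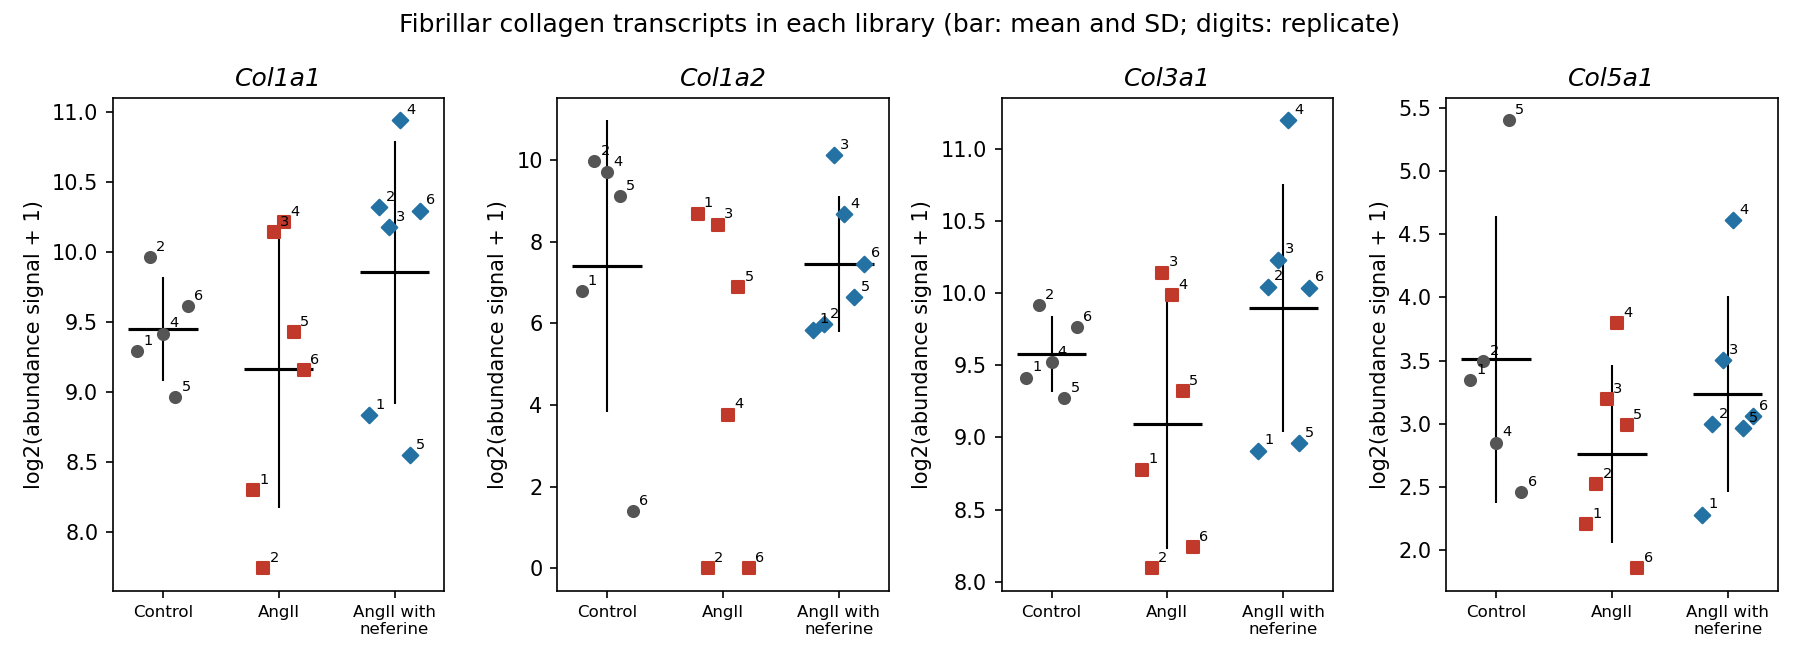
Signal of each collagen transcript as log2(signal + 1) in every library, by group (5 Control, 6 AngII, 6 AngII with neferine). Points carry the replicate number, and bars give the mean and SD of the log2 values (none for Col1a2 in AngII); Control libraries lie close together for Col1a1 and Col3a1, and 2 AngII libraries lie at 0 for Col1a2.

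AngII was compared with Control to see whether angiotensin II infusion altered fibrillar collagen transcripts. None of the 4 transcripts differed beyond the spread between libraries, although all 4 had a lower mean log2 value in AngII. Values were tested as log2(signal + 1) with limma over the 29983 transcripts that had a signal of at least 1 in at least 5 libraries, with all 17 libraries in 1 fit. Col1a1 had a log2 fold change of -0.29 ± 0.48 (SE; limma, adjusted p = 0.902), with a 95% interval of -1.29 to 0.72. For Col3a1 it was -0.48 ± 0.42 (SE; limma, adjusted p = 0.807; 95% interval -1.38 to 0.41). In bulk tissue, any change in the share of collagen-producing cells and any in collagen RNA per cell could not be told apart.

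The estimate for Col1a2 was larger and less certain. Its log2 fold change was -2.77 ± 1.79 (SE; limma, adjusted p = 0.761), with a 95% interval of -6.57 to 1.02. It depends on the pseudocount because of the libraries listed at 0, and was -3.78 with 0.1 in place of 1. Single libraries moved it as much. It was -1.85 without AngII replicate 2 or without AngII replicate 6, and -4.27 without Control replicate 6 (limma, unadjusted p = 0.0195, adjusted p = 0.757; 95% interval -7.75 to -0.79). Col5a1 gave -0.75 ± 0.50 (SE; limma, adjusted p = 0.768; 95% interval -1.81 to 0.31), and -0.28 without Control replicate 5.

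Of the 4 members 0 were called at an adjusted p under 0.05, as were 0% of all transcripts tested. At an unadjusted limma p under 0.05 there were 0 members, against 7.25% of all transcripts, and 0 members had groups that did not overlap, against 0.807%. All 4 estimates were lower in AngII, as were 15755 of the 29983 transcripts tested, and 47.5% were higher. The 4 are not separate counts, since Col1a1 and Col3a1 moved together over the libraries. The median log2 fold change was -0.62 over the 4 members and -0.03 over all transcripts. The estimates depended on AngII replicates 2 and 6 to different degrees. Without them and neferine replicate 1, the estimates were 0.07 for Col1a1, -0.02 for Col3a1, -0.46 for Col1a2 and -0.46 for Col5a1. Without AngII replicate 2 alone, the log2 fold change was -0.0021 for Col1a1, -0.28 for Col3a1 and -0.70 for Col5a1. Without AngII replicate 6 alone, it was -0.29 for Col1a1, -0.31 for Col3a1 and -0.57 for Col5a1.

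The neferine group was set against AngII to see whether neferine altered these transcripts under the same infusion. All 4 had a higher mean log2 value with neferine and none passed. The smallest unadjusted p belonged to Col3a1, with a log2 fold change of 0.80 ± 0.40 (SE; limma, unadjusted p = 0.0642, adjusted p = 0.952) and a 95% interval of -0.05 to 1.66. For Col1a1 the log2 fold change was 0.69 ± 0.45 (SE; limma, adjusted p = 0.952; 95% interval -0.27 to 1.65). The mean signal with neferine was 1.75 times that of AngII for Col3a1 and 1.58 times for Col1a1, and 2 and 3 neferine libraries respectively lay above every AngII library.

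For Col1a2 the log2 fold change was 2.83 ± 1.71 (SE; limma, adjusted p = 0.952; 95% interval -0.78 to 6.45). For Col5a1 it was 0.48 ± 0.48 (SE; limma, adjusted p = 0.957; 95% interval -0.53 to 1.48), and it came to 0.20 without neferine replicate 4 and to 0.29 without AngII replicate 6. Single libraries moved Col1a1 and Col3a1 both ways. Col1a1 came to 0.41 without AngII replicate 2 and to 0.95 without neferine replicate 5. Col3a1 came to 0.54 without neferine replicate 4. It came to 1.01 without AngII replicate 3 (limma, unadjusted p = 0.0229, adjusted p = 0.873, 95% interval 0.16 to 1.86). Its interval also lay above 0 without AngII replicate 4, neferine replicate 1 or neferine replicate 5, and with a term for the replicate number. So did that of Col1a1 without neferine replicate 5, and none passed. In the fit with all libraries, 0 of the 4 members were called, where 0% of all transcripts were. There were 0 at an unadjusted limma p under 0.05, against 5.22% of all transcripts, and 0 without overlap, against 0.263%. The 4 higher estimates stand beside 49.5% of all transcripts that were higher with neferine. The median log2 fold change was 0.75 over the members and -0.0042 over all transcripts. Both comparisons use the AngII libraries, and their values enter the first estimate and the second with opposite signs. Without the 3 libraries that stood apart, Col1a2 came to 0.84, Col1a1 and Col3a1 to 0.54 each, and Col5a1 to 0.38.

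The neferine group was also compared with Control, with the same Control libraries as in the first comparison. Col1a1 had a log2 fold change of 0.40 ± 0.48 (SE; limma, adjusted p = 0.852; 95% interval -0.60 to 1.41) and Col3a1 of 0.32 ± 0.42 (SE; limma, adjusted p = 0.872; 95% interval -0.58 to 1.22). Without neferine replicate 4 alone, Col1a1 came to 0.19 and Col3a1 to 0.06, and without neferine replicate 1 alone to 0.61 and 0.52. Col1a2 was at 0.06 ± 1.79 (SE; limma, adjusted p = 0.995; 95% interval -3.73 to 3.85), an interval too wide to say whether the groups were alike. It turned to -1.44 without Control replicate 6, and leaving out other single libraries moved it up to 0.70. Col5a1 was at -0.27 ± 0.50 (SE; limma, adjusted p = 0.912; 95% interval -1.33 to 0.78), and turned to 0.20 without Control replicate 5.

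In this comparison limma called 0 of the 4 members and 0.0367% of all transcripts. There were 0 members at an unadjusted limma p under 0.05, against 8.74% of all transcripts, and 0 without overlap, against 2.08%. Of the members 3 were higher with neferine, as were 47.1% of all transcripts, and their median log2 fold change was 0.19 against -0.03 over all transcripts.

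**Figure D2:**
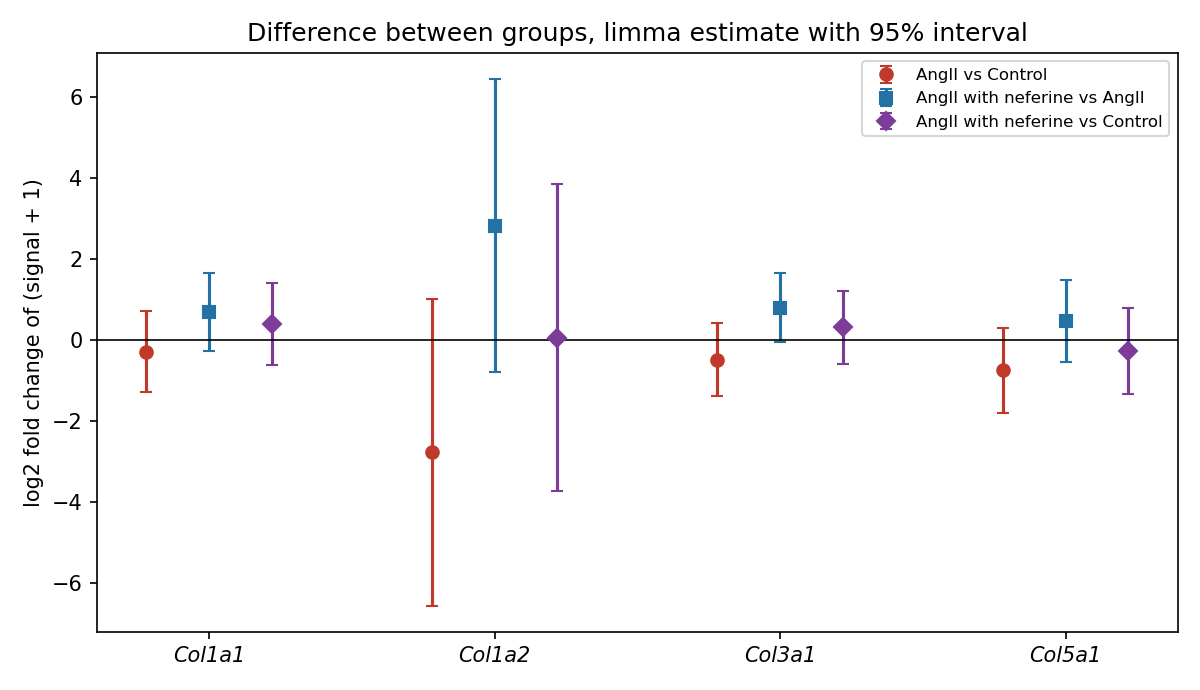
Log2 fold change of (signal + 1) for each collagen transcript in the 3 comparisons, with limma estimates as points and 95% intervals as bars. All 12 intervals include 0, and those of Col1a2 are the widest.

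Within libraries, Col1a1 and Col3a1 moved together. Over the 17 libraries the Pearson r of their log2 values was 0.92 (permutation p = 1e-05, the smallest that 100000 resamples can give; adjusted p = 6e-05 over 6 pairs) and Spearman's rho was 0.93 (permutation p = 1e-05, adjusted p = 6e-05). Without AngII replicate 2 and neferine replicate 4, the libraries farthest from the median of Col1a1, r was 0.86. It was 0.87 over the 11 Control and AngII libraries, 0.96 over the 6 neferine libraries, and 0.91 for deviations from the group means. In each of these points the 2 transcripts share a library and its scale.

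The log2 ratio of Col1a1 to Col3a1 showed how closely the chains of type I and type III collagen kept step. Control had a mean ratio of -0.13 ± 0.13 (SD, n = 5), AngII one of 0.07 ± 0.50 (SD, n = 6) and neferine one of -0.04 ± 0.27 (SD, n = 6). The SD over all 17 libraries was 0.33, whereas the within-group SD of either transcript alone was 0.84 for Col1a1 and 0.74 for Col3a1. AngII replicate 6 had the highest ratio, 0.92, with Col1a1 at 570.1 and Col3a1 at 301. AngII replicate 1 had the lowest, -0.48. The ratio does not move with the scale of a library, and it is given as a description with no test.

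The listed transcripts for the 2 chains of type I collagen were not in step. Signal given to other transcripts of either gene is not in these values. Col1a1 and Col1a2 had a Pearson r of 0.36 (permutation p = 0.16, adjusted p = 0.16 over 6 pairs) and a Spearman rho of 0.23 (permutation p = 0.377, adjusted p = 0.377) over 17 libraries. Without AngII replicate 2 and neferine replicate 4, r was 0.04. Their log2 ratio was near 0 in 5 libraries. It was -0.01, -0.30 and -0.15 in Control replicates 2, 4 and 5, -0.40 in AngII replicate 1 and 0.05 in neferine replicate 3. It reached 8.21 in Control replicate 6, 6.45 in AngII replicate 4, 7.74 in AngII replicate 2 and 9.16 in AngII replicate 6, where the last 2 have Col1a2 listed at 0. These last values depend on the pseudocount. The mean ratio for Control was 2.05 ± 3.63 (SD, n = 5) and for neferine 2.39 ± 1.42 (SD, n = 6), and the Control mean was 0.51 without Control replicate 6. No AngII mean is given because of the listed zeros, and AngII replicates 1, 3, 4 and 5 had ratios of -0.40, 1.71, 6.45 and 2.54.

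**Figure D3:**
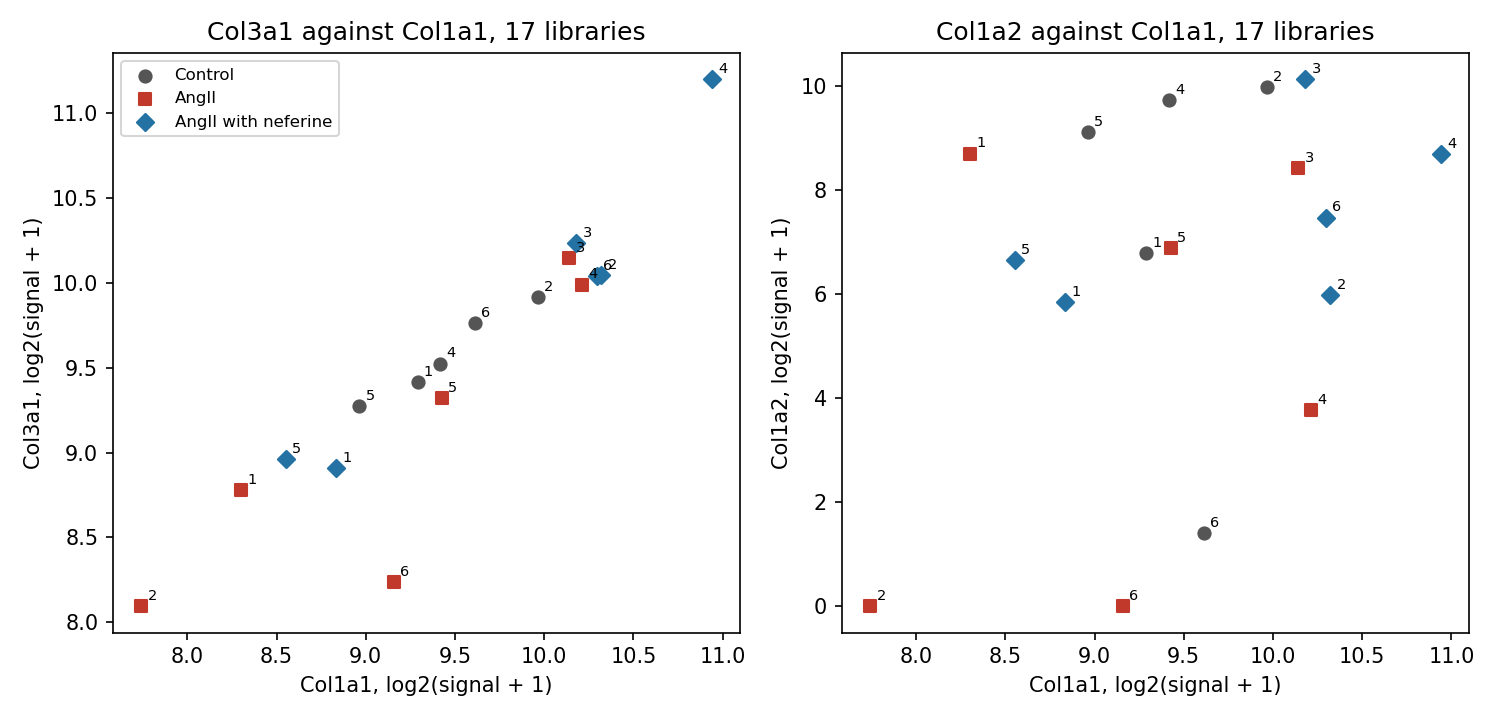
Col3a1 (left) and Col1a2 (right) against Col1a1, each as log2(signal + 1), for 17 libraries marked by group and replicate number. Col3a1 follows Col1a1 closely apart from AngII replicate 6. Col1a2 was 0 in AngII replicate 6 and 9.12 in Control replicate 5, at similar Col1a1 values of 9.16 and 8.96.

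Col5a1 followed Col3a1 more closely in rank than in value. Their Pearson r was 0.57 (permutation p = 0.0189, adjusted p = 0.0556 over 6 pairs) and Spearman's rho 0.66 (permutation p = 0.00508, adjusted p = 0.0152). Without neferine replicate 4 and AngII replicate 2, r was 0.42. It was 0.44 over the 11 Control and AngII libraries and 0.90 over the 6 neferine libraries. Col5a1 and Col1a1 had an r of 0.42 (permutation p = 0.0946, adjusted p = 0.114) and a rho of 0.57 (permutation p = 0.0189, adjusted p = 0.0378). Without the same libraries r was 0.23, and it was 0.27 over the 11 Control and AngII libraries and 0.74 over the 6 neferine libraries. Col1a2 had an r of 0.53 with Col3a1 (permutation p = 0.0278, adjusted p = 0.0556; rho = 0.43, permutation p = 0.085, adjusted p = 0.102) and of 0.50 with Col5a1 (permutation p = 0.0385, adjusted p = 0.0578; rho = 0.50, permutation p = 0.0433, adjusted p = 0.065). Without AngII replicates 2 and 6, where Col1a2 is listed at 0, r was 0.11 with Col3a1 and 0.33 with Col5a1. Within the file sets r was 0.52 and 0.48 over the 11 Control and AngII libraries, and 0.64 and 0.69 over the 6 neferine libraries, none of which lists Col1a2 at 0.

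The log2 ratio of the Col5a1 to the Col1a1 transcript averaged -5.94 ± 1.40 for Control (SD, n = 5). It was -6.40 ± 0.72 for AngII (SD, n = 6) and -6.62 ± 0.64 for neferine (SD, n = 6). Its level depends on the unnamed unit, and its differences between groups were smaller than the SD within Control. Control replicate 5 stood at -3.56, the highest of the study.

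**Figure D4:**
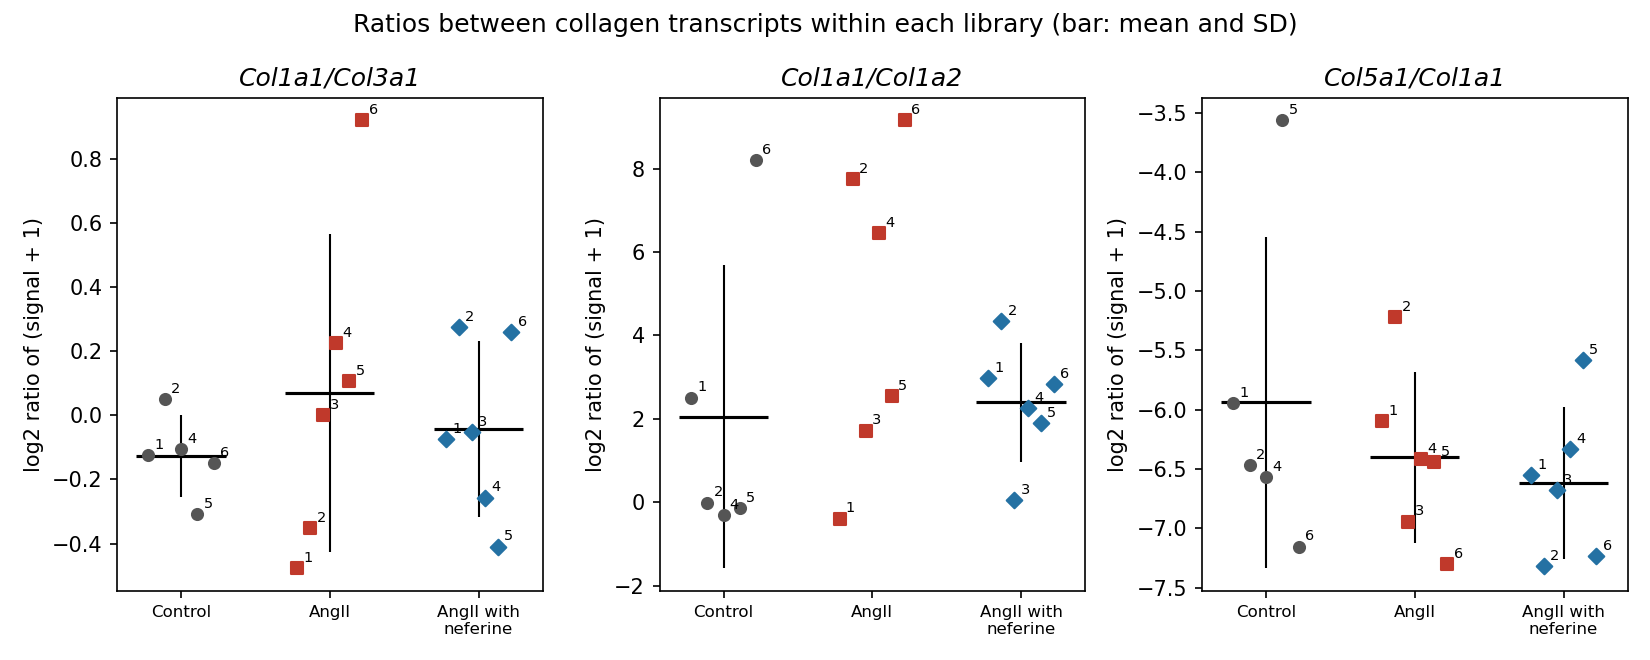
Log2 ratios of (signal + 1) between collagen transcripts within each library, by group, with the mean and SD as bars (none for Col1a1/Col1a2 in AngII) and replicate numbers beside the points. Col1a1/Col3a1 stays within -0.48 to 0.92, Col1a1/Col1a2 runs from -0.40 to 9.16, and Control replicate 5 stands alone in Col5a1/Col1a1.

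The spread of these transcripts between libraries of 1 group was itself uneven. The within-group SD of the log2 values was 3.22 for Col1a2, larger than in 99.9% of the 29983 transcripts tested, where the median was 0.60. It was 3.58 in Control, where no library listed Col1a2 at 0. For Col5a1 it was 0.87 and for Col1a1 0.84, larger than in 74.8% and 72.6% of transcripts, and for Col3a1 0.74, larger than in 64.8%. Among the 430 transcripts whose mean log2 value was that of a signal of at least 100, the median was 0.51. There the SD of Col1a1 was larger than in 84.9% and that of Col3a1 than in 79.3%. For Col3a1 the SD of the log2 values was 0.26 in Control, 0.87 in AngII and 0.86 with neferine. The AngII SD was 3.33 times that of Control, where the median over 29927 transcripts was 1.19 and 8.03% had a larger ratio. The neferine SD was 3.29 times that of Control, against a median of 1.04, and 4.90% had a larger ratio. For Col1a1 these ratios were 2.65 and 2.53, which 13.0% and 8.92% of transcripts exceeded. All libraries that stood apart were in the treated groups and enter these SDs. Among them, AngII replicates 2 and 6 had the lowest Col3a1 signals of the study, 273 and 301. The other members did not share the wider treated spread. Col5a1 had ratios of 0.623 and 0.686, below those of 89.4% and 80.1% of transcripts, with Control replicate 5 in the Control SD. Col1a2 had ratios of 1.12 and 0.468, below those of 54.6% and 92.7%. These ratios were chosen for description after the values were seen and were not tested.

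The libraries with high column totals were among those with a low summed signal of the 4 transcripts. This sum depends on the unnamed unit, so it is a description and not a measure of total collagen RNA. Col5a1 adds little to it, and Col1a2, at 0 to 1117, moves it much. The summed signal of the 4 transcripts was 490.4 in AngII replicate 2, 874 in AngII replicate 6 and 995 in neferine replicate 1, against 978 to 4741 in the other 14 libraries. By group the mean sum for Control was 2008 ± 626 (SD, n = 5) and for neferine 2515 ± 1455 (SD, n = 6). In AngII the lowest sum was 490.4, the median 1310.3 and the highest 2608, where AngII replicates 2 and 6 enter with Col1a2 at 0. Because those 3 libraries lie apart in the total, a relation with it was computed only over the other 14. There Col1a1 had a Pearson r of -0.50 with the total (permutation p = 0.0729, adjusted p = 0.214 over 4 relations; rho = -0.45, permutation p = 0.105, adjusted p = 0.304; r = -0.34 without the 2 libraries farthest from the median total). Col3a1 had an r of -0.45 (permutation p = 0.107, adjusted p = 0.214; rho = -0.41, permutation p = 0.152, adjusted p = 0.304; r = -0.31 without 2 libraries). The other members had a positive r. It was 0.26 for Col1a2 (permutation p = 0.37, adjusted p = 0.493; rho = 0.12, permutation p = 0.693, adjusted p = 0.924; r = 0.25 without 2 libraries). For Col5a1 it was 0.15 (permutation p = 0.615, adjusted p = 0.615; rho = 0.0066, permutation p = 0.988, adjusted p = 0.988; r = 0.40 without 2 libraries). None of the 4 relations passed.

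The lower AngII estimates kept their sign under other scalings. After each library was divided by its median ratio to the mean library, the log2 fold change between AngII and Control was -0.26 for Col1a1 and -0.46 for Col3a1, and after division by its total it was -0.40 and -0.60. The part that the make-up of those 3 libraries has in the group means was not tested.

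**Figure D5:**
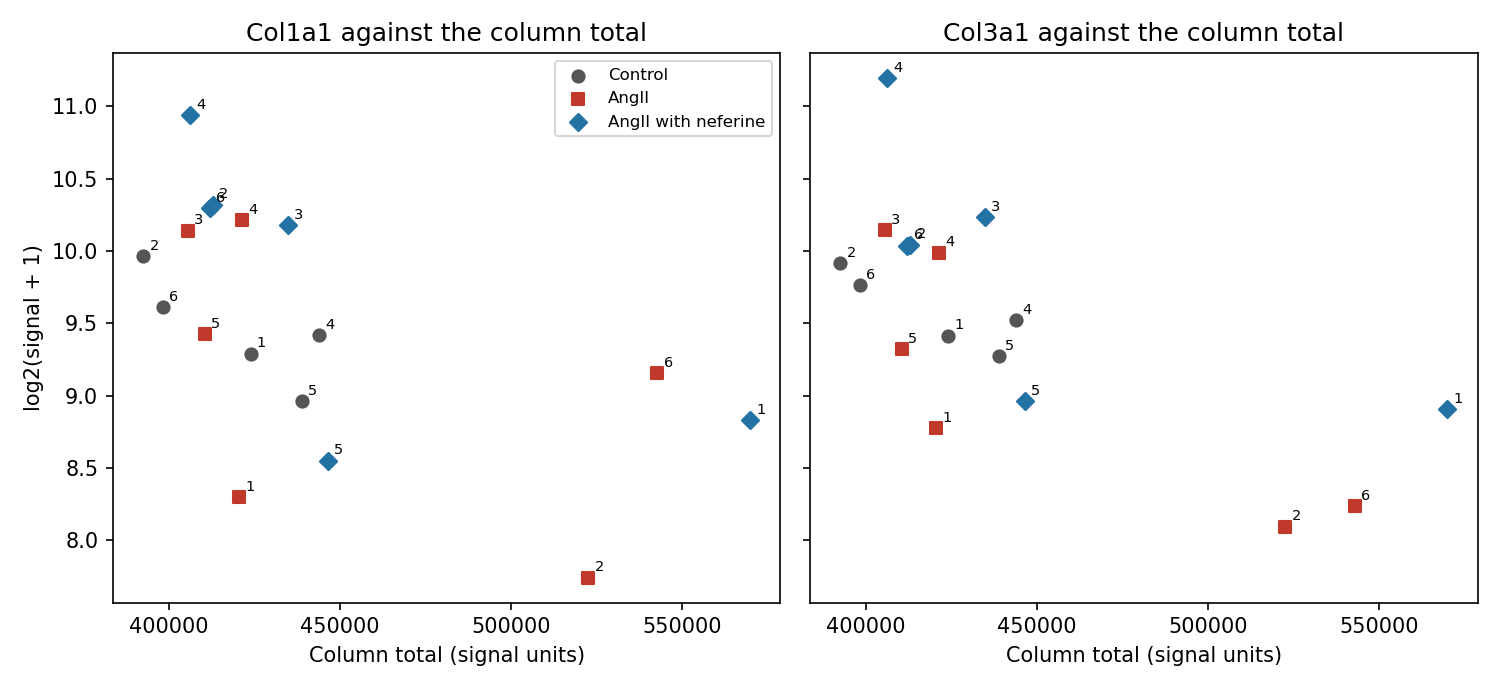
Col1a1 (left) and Col3a1 (right) as log2(signal + 1) against the column total of each library in signal units, marked by group and replicate number. The 3 libraries with totals of 522609 or more have Col3a1 values under every Control library. So do AngII replicate 1 and neferine replicate 5, with totals of 420557 and 446577. For Col1a1, AngII replicate 6 lies above Control replicate 5.

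Among 8033 other Ensembl transcripts with a mean signal of at least 5, those most like the collagens over the 17 libraries were ENSMUST00000025409 and ENSMUST00000129611. Their log2 values had a Pearson r of 0.89 each with the mean of the 4 standardized collagen profiles. The single members had an r with this mean, of which they are a part, of 0.93 for Col3a1, 0.83 for Col1a1, 0.77 for Col5a1 and 0.74 for Col1a2. ENSMUST00000025409 had a median of 113 in Control, 73.9 in AngII and 112 with neferine. For ENSMUST00000129611 the medians were 10.8 in Control, 9.00 in AngII and 14.3 with neferine. The profiles most opposed were those of ENSMUST00000060913 and ENSMUST00000105591, with an r of -0.86 and -0.85. ENSMUST00000060913 differed little between groups, with a median of 7.84 in Control, 9.20 in AngII and 8.04 with neferine. ENSMUST00000105591 had a median of 4.42 in Control, 16.5 in AngII and 6.04 with neferine. These transcripts were picked by r from all those compared, so their r and medians are a description and not a test. They share all libraries with the collagens, and their gene names are not paired with the identifiers.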

How the data were processed

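Total RNA of 17 abdominal aorta samples was depleted of ribosomal RNA before library preparation, per the labels' protocols. The deposited files hold a linear abundance signal per transcript, and per the file headers no unit is named. For aligner, quantification tool, build and annotation, nothing is stated by the labels or headers. Among tools, limma is listed in the submitters' processing notes, with no role. Gene symbols of the members came with their list. The members, gene lists and tests were chosen with earlier results of these data known. The planned pathway and cell marker lists could not be used, because 0 identifiers matched the RefSeq table of GRCm38.p6.

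Of the 45780 transcripts in any file, the 39614 in all files were used, and 29983 that reached a signal of 1 in 5 or more libraries were tested as log2(signal + 1) with limma 3.58.1 in R 4.3.3 (trended, robust empirical Bayes, a term per group, no covariate, Benjamini-Hochberg over all transcripts, call at an adjusted p under 0.05). The script was tested on simulated data. Fold changes on this scale understate changes of low transcripts. Alternatives were other pseudocounts, filters, scalings, weights and tests, a replicate block, and each library left out. Correlations used 100000 permutations in numpy 2.4.6. For names, all members were printed, plus the 2 most and 2 least correlated other transcripts with a mean of at least 5.

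The read depth is unknown. From the commonest ratio of values under 0.05 between libraries, relative depths were 0.983 to 1.113 against AngII replicate 5. That ratio held 24.4% to 32.5% of these values per library, so it is a rough guide and not a measured depth. No pair of libraries had equal values above 0 in more than 0.414% of transcripts.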

Additional observations from a re-analysis of the deposited data

Results flagged for a closer look

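The 4 transcripts, their 3 ratios and their sum in each group gave 24 groups of 5 or 6 values. Of these, 3 had 1 library far from the others. The rate of about 5% set for chance does not hold strictly here. Ratios and sums reuse the values of the transcripts, and the linear signals are skewed. Col5a1 was 41.2 in Control replicate 5, where the other Control libraries had 4.50 to 10.3. Col5a1 was 23.4 in neferine replicate 4, the library with the highest Col1a1 and Col3a1 of the study. Col1a2 was 1117 in neferine replicate 3, where the other neferine libraries had 56.7 to 411.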

How the results depend on the processing

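None of the 4 transcripts passed in any comparison under any alternative, and the smallest adjusted p among 376 results was 0.572. The direction was kept in 369 and turned in 7. Many could not turn. Leaving out a library of the group not compared, another filter, a fit without trend or the exact test repeats the main estimate. Without AngII replicates 2 and 6 and neferine replicate 1, Col1a1 turned to 0.0705 between AngII and Control, where leaving out 1 library gave -0.496 to -0.0021. Between neferine and Control, Col1a2 (0.06) turned to -0.59 with the replicate block, and leaving out 1 library gave -1.44 to 0.70 for Col1a2 and -0.55 to 0.20 for Col5a1. The cause was not tested. The numbers in the titles did not pair the libraries (correlation of deviations -0.15 to 0.06 over 16 pairs, 2 of them best with their own number), and the replicate block called 0 members and moved the count of all calls between neferine and Control from 11 to 0. Over all alternatives that count was 0 to 110, and it was 0 to 12 between AngII and Control and 0 to 13 between neferine and AngII, where it was 0. An exact permutation test per transcript cannot go under 0.00216 here, and it called 0 in each comparison. That floor survives the adjustment over 29983 transcripts only if very many transcripts share it, so the 0 calls could hardly have been otherwise. Among correlations, Col1a1 with Col1a2 turned to -0.0259 without the 3 libraries. With a pseudocount of 0.1, Col1a2 with Col3a1 (0.59), Col1a2 with Col5a1 (0.52) and Col3a1 with Col5a1 (0.59) passed, with adjusted p of 0.0292, 0.0486 and 0.0292. For ratios and sums only leaving out 1 library was run, which cannot move a mean past 1 SD. The largest such move in the mean log2 ratios was in Control Col1a1/Col1a2, from 2.05 to 0.51 without Control replicate 6. Alternatives that pair a scaling with another pseudocount, and 3 for the correlations (scaling, 3 libraries left out, deviations from group means), were added after seeing the data. The ratio of Col5a1 to Col5a2 was not run.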
